A study of Mus musculus with 4 samples.

Results

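The mRNA of lung MDSCs from mice given FR17 was compared with that of mice given sFD17, the pair of assembling peptides of the study. FR17 carries thymopentin (TP5), an immunoregulatory peptide, on a self-assembling peptide that is cut by the protease MMP2 and then assembles in the lung. In sFD17 the order of the TP5 residues is scrambled, so that it assembles but lacks the bioactivity of TP5, and the comparison addresses what the intact TP5 order adds to assembly. Of the 54532 genes in the table, the 16369 with 10 or more counts in at least 1 of the 4 libraries were compared, as log2 CPM (read counts scaled to the library size) in FR17 minus sFD17 after scaling with edgeR's TMM factors and a prior count of 2. The comparison used 2 of the 4 libraries of the series, 1 for each peptide, and the control and TP5 libraries served as reference values only.

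All 4 groups were male C57BL/6 mice of 6 to 8 weeks in a model of the premetastatic niche (PMN): each mouse was injected intraperitoneally with 300 μl of MCM a day for 10 days, the medium conditioned by B16F10 melanoma cells, and received 100000 B16F10 cells by tail vein injection on day 7. The control mice of the model received no peptide. TP5, sFD17 and FR17 mice received the free or assembling peptide under the skin at 40 μM/kg per day, starting on day 3, so that FR17 and sFD17 were matched in dose and time. Lungs were collected on day 10, and CD11b+Ly6g+ cells were sorted from the pooled lungs of 10 to 12 mice per group. Each group is a single library without replicates, so no p-value can be given, and a difference cannot be told apart from one between pools of mice, sorts or libraries. The intervals given are 95% exact binomial intervals of the ratio of a pair of counts and cover counting error only. A difference smaller than 2-fold does not show that the compounds act alike.

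As background, type I interferons bind a receptor that acts through JAK kinases, STAT2 and IRF9 to switch on antiviral genes, many of which hold the interferon-stimulated response element in their promoters. Interferon gamma acts at the gamma-activated site and induces large GTPases of the Gbp and Irg families. Cells with the surface markers CD11b and Ly6g in the mouse lung are mostly neutrophils and neutrophil-like MDSCs, and the lung also holds alveolar and interstitial macrophages, which carry CD11b to different degrees.

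The libraries differed in depth and composition. Total counts were 19638228 for FR17 and 15543071 for sFD17, beside 17132880 for control and 17165184 for TP5, and the TMM factors were 1.17, 0.849, 0.986 and 1.02 in that order. A total of 1847 genes were at least 2-fold higher in FR17 than in sFD17, 11.3% of those tested, and 1766 genes were at least 2-fold lower, 10.8%. Of these, 349 were at least 4-fold higher and 269 at least 4-fold lower. The counting interval excluded equality for 1570 of the higher and 1648 of the lower genes. The median difference of all genes tested was 0.07 on the log2 scale, with quartiles of −0.48 and 0.58. Scaling by library size alone moved that median to 0.52 and the share of 2-fold differences that were higher in FR17 from 51.1% to 84.3%, so the balance of both directions rests on the scaling. Of all genes tested 25.7% were then at least 2-fold higher and 4.78% lower, and when differences were centred on the median neutrophil marker 30.7% were higher and 3.79% lower, and list counts given for these scalings are to be read beside those shares. Both scalings shift all genes nearly alike, so a list's median relative to that of all genes hardly changes with them.

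The direction of the differences went with the level of the gene. Among the 625 genes with a mean over 5000 counts, 26.7% were lower in FR17 and 1.92% higher. Among the 5316 genes with a mean under 50 counts, 15.8% were lower and 18.7% higher. The most abundant genes lower in FR17, by mean count, were the inflammatory cytokine Il1b, the neutrophil-attracting chemokine Cxcl2, the phosphatase Dusp1, the survival factor Mcl1 and the matricellular protein Thbs1. Il1b had 156498, 133841, 171491 and 129241 counts in the control, TP5, sFD17 and FR17 libraries, a difference of −1.21. Cxcl2 had 152311, 120978, 142913 and 101222 counts in the same order, a difference of −1.30. For both genes FR17 was the lowest of the 4 libraries in counts, although it was the deepest. The most abundant genes higher in FR17 were Apoe, Chil3, Selenop, C1qa and C1qb, 4 of which are on the macrophage list described further on. Apoe, a lipid carrier, had 61643, 43513, 19337 and 97915 counts in the control, TP5, sFD17 and FR17 libraries, a difference of 1.54.

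**Figure D1:**
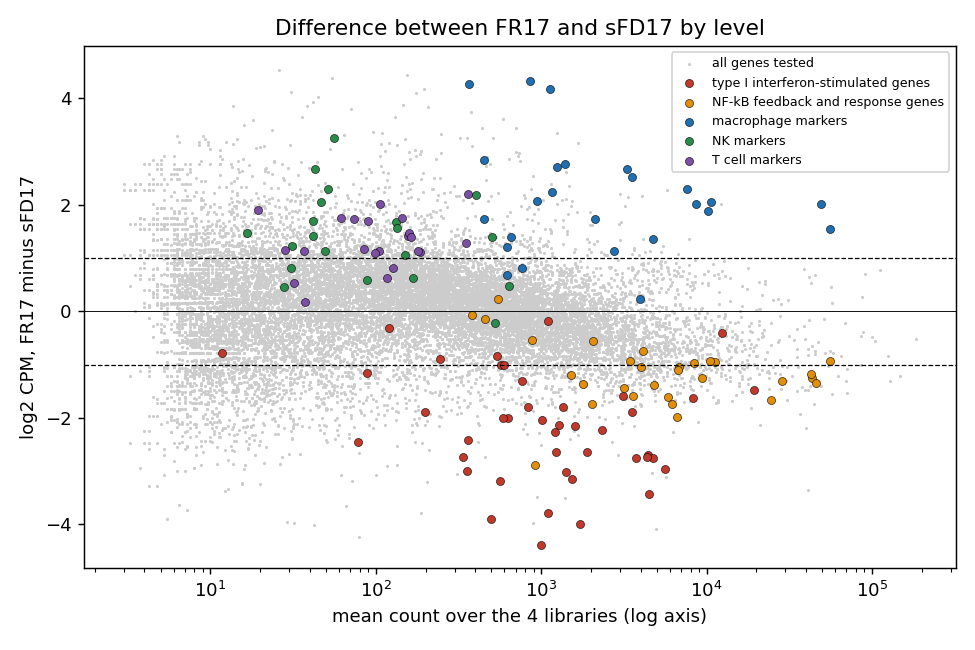
Difference between FR17 and sFD17 (vertical axis, log2 CPM) against the mean count over the 4 libraries (horizontal log axis) for the 16369 genes tested, with members of 5 lists in colour and dashed lines at 2-fold. Interferon-stimulated and NF-kB genes lie below 0 but for 1 NF-kB gene, and macrophage, NK and T cell markers lie above it but for 1 NK marker.

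**Figure D2:**
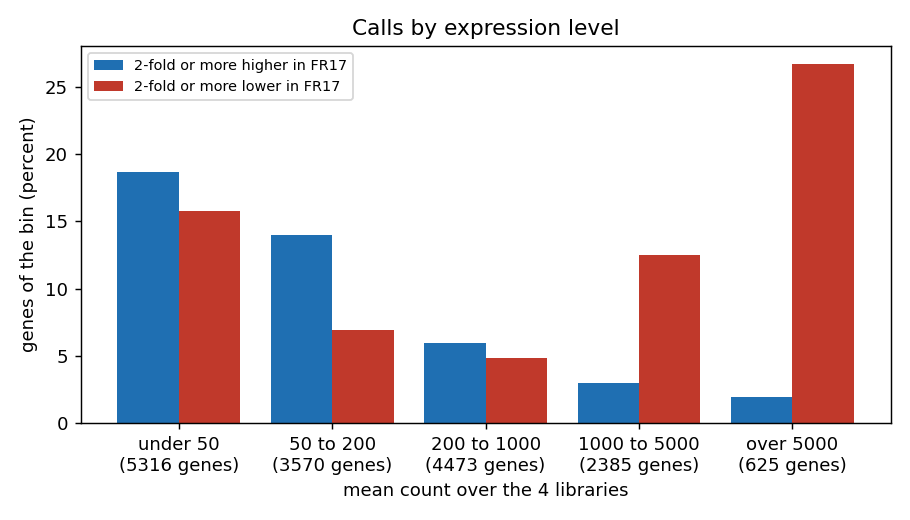
Share of genes (percent, vertical axis) that were at least 2-fold higher or lower in FR17 than in sFD17, in 5 bins of mean count over the 4 libraries (horizontal axis). The lower share reaches 26.7% in the bin over 5000 counts, where the higher share is 1.92%.

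Type I interferon-stimulated genes were lower in FR17 than in sFD17 almost throughout the list. Of the 45 listed genes 43 were tested, 37 were at least 2-fold lower (86.0%, beside 10.8% of all genes tested) and 0 were at least 2-fold higher. The median difference was −2.16, beside 0.07 over all genes, and the summed level was 13594 CPM in sFD17 and 3422 CPM in FR17, with 4432 in control and 4071 in TP5. In 34 of the 43 genes sFD17 stood at least 2-fold above both control and TP5, and in 0 did FR17 stand 2-fold away from both. FR17 was thus close to the reference libraries for these genes, and sFD17 was the library that differed. Neutrophil markers were also highest in sFD17, at a sum of 59172 CPM against 36542 CPM in FR17, and macrophage markers lowest, at 3939 against 13693, and their part in the interferon and NF-kB differences was not tested.

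The largest difference on the list was that of Ifit2, which encodes a protein that binds viral RNA and blocks its translation. Ifit2 had 260, 259, 3217 and 266 counts in the control, TP5, sFD17 and FR17 libraries, a difference of −4.38 (interval −4.58 to −4.21), or 21-fold higher in sFD17 in CPM. Its paralog Ifit3 had 603, 500, 5243 and 571 counts, a difference of −3.99 (−4.12 to −3.87). Both genes stood high in sFD17 alone, with the other libraries near one another. Rsad2, the antiviral radical enzyme viperin, had 2505, 2528, 11066 and 1787 counts in the control, TP5, sFD17 and FR17 libraries, a difference of −3.43. Isg15, a ubiquitin-like modifier, had 3039, 2663, 9489 and 2544 counts, a difference of −2.70. Usp18, the protease that removes Isg15 from its targets and damps interferon signaling, had 169, 227, 841 and 181 counts, a difference of −3.00. Modifier and protease were thus both high in sFD17 only.

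Antiviral effectors of other kinds were lower in FR17 than in sFD17 as well. Among the oligoadenylate synthetases, which activate RNase L, Oasl1 differed by −3.15, Oasl2 by −2.96, Oas3 by −2.75, Oas2 by −2.22, Oas1a by −2.04 and Oas1g by −1.90. The nucleic acid sensor Zbp1 had 619, 521, 3732 and 806 counts in the control, TP5, sFD17 and FR17 libraries, a difference of −3.01. Irf7, the transcription factor that amplifies interferon production, had 2346, 2939, 9579 and 2488 counts, a difference of −2.74. The RNA helicases Ifih1, Dhx58 and Ddx58 differed by −2.27, −2.01 and −1.80. The 6 genes of the list within 2-fold were Mx1, Bst2, Ifi44, Tor3a, Phf11d and Ly6e, with differences from −0.90 to −0.18. Mx1, a GTPase against RNA viruses, had 176, 220, 304 and 283 counts, and Bst2, which tethers viruses to the cell, had 883, 891, 1043 and 1606. The list was therefore not uniform, and 2 of its known members, Apol9a and Apol9b, had too few counts to be compared.

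Promoters of the 5 interferon-list genes with the largest differences are shown because these genes carry the contrast, with that of Gbp2b, chosen after its value was seen, because it moved the other way from its neighbours. The sequences are from RefSeq (GRCm38.p6), 5′ to 3′ on the gene's strand, from before the transcription start, with annotated exon bases left off except the last 12 printed for Gbp2. Capitals mark GAAANNGAA on either strand, the core of the interferon-stimulated response element.
Ifit2 (chr19:34550444-34550693, plus strand): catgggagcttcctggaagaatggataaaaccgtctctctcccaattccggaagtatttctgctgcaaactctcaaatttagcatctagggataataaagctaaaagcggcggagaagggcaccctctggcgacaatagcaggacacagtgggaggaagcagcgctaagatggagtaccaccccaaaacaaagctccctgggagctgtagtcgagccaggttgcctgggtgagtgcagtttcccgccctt
Tgtp1 (chr11:48992259-48992496, minus strand): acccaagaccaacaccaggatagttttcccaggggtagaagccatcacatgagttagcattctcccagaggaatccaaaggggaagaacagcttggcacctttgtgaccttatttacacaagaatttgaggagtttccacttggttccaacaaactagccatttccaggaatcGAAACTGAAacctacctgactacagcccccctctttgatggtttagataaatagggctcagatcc
Gbp2 (chr3:142620413-142620613, plus strand): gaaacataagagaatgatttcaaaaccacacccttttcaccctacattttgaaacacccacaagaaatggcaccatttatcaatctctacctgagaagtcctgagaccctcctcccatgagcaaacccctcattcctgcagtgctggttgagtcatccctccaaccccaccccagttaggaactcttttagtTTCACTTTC
Ifit3 (chr19:34583279-34583528, plus strand): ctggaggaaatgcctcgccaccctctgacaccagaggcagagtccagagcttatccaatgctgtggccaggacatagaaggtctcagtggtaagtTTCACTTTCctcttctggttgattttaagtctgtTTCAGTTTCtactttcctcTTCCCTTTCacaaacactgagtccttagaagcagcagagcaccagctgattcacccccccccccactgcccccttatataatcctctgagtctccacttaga
Gbp5 (chr3:142496684-142496899, plus strand): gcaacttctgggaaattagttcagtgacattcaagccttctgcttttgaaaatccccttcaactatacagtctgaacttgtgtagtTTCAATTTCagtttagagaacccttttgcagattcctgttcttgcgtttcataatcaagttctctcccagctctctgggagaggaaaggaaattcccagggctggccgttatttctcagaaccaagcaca
Gbp2b (chr3:142594597-142594846, plus strand): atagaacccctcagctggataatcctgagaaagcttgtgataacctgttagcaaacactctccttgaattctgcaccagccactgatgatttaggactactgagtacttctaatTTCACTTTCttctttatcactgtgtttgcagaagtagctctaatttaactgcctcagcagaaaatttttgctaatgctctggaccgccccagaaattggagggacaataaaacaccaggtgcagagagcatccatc
The core was found once in the windows of Tgtp1, Gbp2, Gbp5 and Gbp2b, 3 times in that of Ifit3, and not in that of Ifit2. The window of Gbp2b holds it as that of Gbp2 does, although Gbp2b was higher in FR17.

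Over whole promoters, from 250 bases before to 50 after the start, the core was present in 18 of the 31 type I interferon-stimulated genes with a promoter in the table (58.1%). It was present in 5 of 5 guanylate-binding protein genes and in 7 of 10 immunity-related GTPase genes. It was present in 15.4% of the interferon receptor and transducer genes, 12.0% of the NF-kB genes and 26.3% of the macrophage markers, which were higher in FR17. Of the 11190 genes tested that had a promoter, 9.09% held it, and of all 32851 promoters 8.56%. Among all genes at least 2-fold lower in FR17 the share was 13.5%, and among those at least 2-fold higher it was 8.45%. TTCNNNGAA, the form of the gamma-activated site, was found in 25.8% of the type I list, 5 of 10 immunity-related GTPases and 8.37% of all genes tested. Both patterns were searched on both strands and may overlap, and a match is a run of letters, not a binding site.

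Guanylate-binding proteins and immunity-related GTPases, which attack the membranes around intracellular pathogens, were mostly lower in FR17. Of 9 guanylate-binding protein genes tested, 5 were at least 2-fold lower in FR17 (55.6%, beside 10.8% of all genes) and 1 was higher (11.1%, beside 11.3%). The median difference was −1.11. Gbp2 had 1654, 978, 15599 and 1605 counts in the control, TP5, sFD17 and FR17 libraries, a difference of −4.08 (−4.15 to −4.01). Gbp5, which promotes inflammasome activation, had 304, 188, 2774 and 306 counts, a difference of −3.97. Gbp7, Gbp9 and Gbp3 were lower by smaller amounts, at −1.83, −1.80 and −1.11. Gbp2b had 100, 77, 21 and 185 counts and a difference of 2.26 (1.69 to 3.07). Gbp2b lies between Gbp3 and Gbp2 on chromosome 3, and it was lowest in sFD17 where both neighbours were highest. The 5 tested genes of this cluster, Gbp5, Gbp7, Gbp3, Gbp2b and Gbp2, lie in that order between positions 142493978 and 142638008 (GRCm38) on the plus strand.

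Of 13 immunity-related GTPase genes, 9 were at least 2-fold lower in FR17 (69.2%, beside 10.8% of all genes) and 2 were higher (15.4%, beside 11.3%). The median difference was −1.87. Tgtp1 had 30, 14, 253 and 21 counts in the control, TP5, sFD17 and FR17 libraries, a difference of −4.23 (−5.11 to −3.75). Its near-identical copy Tgtp2 had 148, 76, 423 and 175 counts, a difference of −2.06, and reads could be split between the copies. Ifi47 had 461, 367, 4130 and 628 counts, a difference of −3.51, and Irgm1, a regulator of the family, had 561, 461, 2261 and 688, a difference of −2.51. These genes were again high in sFD17 alone. Gm4951, with 47, 17, 14 and 105 counts, differed by 2.00, F830016B08Rik by 1.42 from 4 and 23 counts, and Iigp1, with 191, 39, 84 and 261 counts, by 0.83. For these 3 genes TP5 and sFD17 were the low libraries and control and FR17 the high ones.

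**Figure D3:**
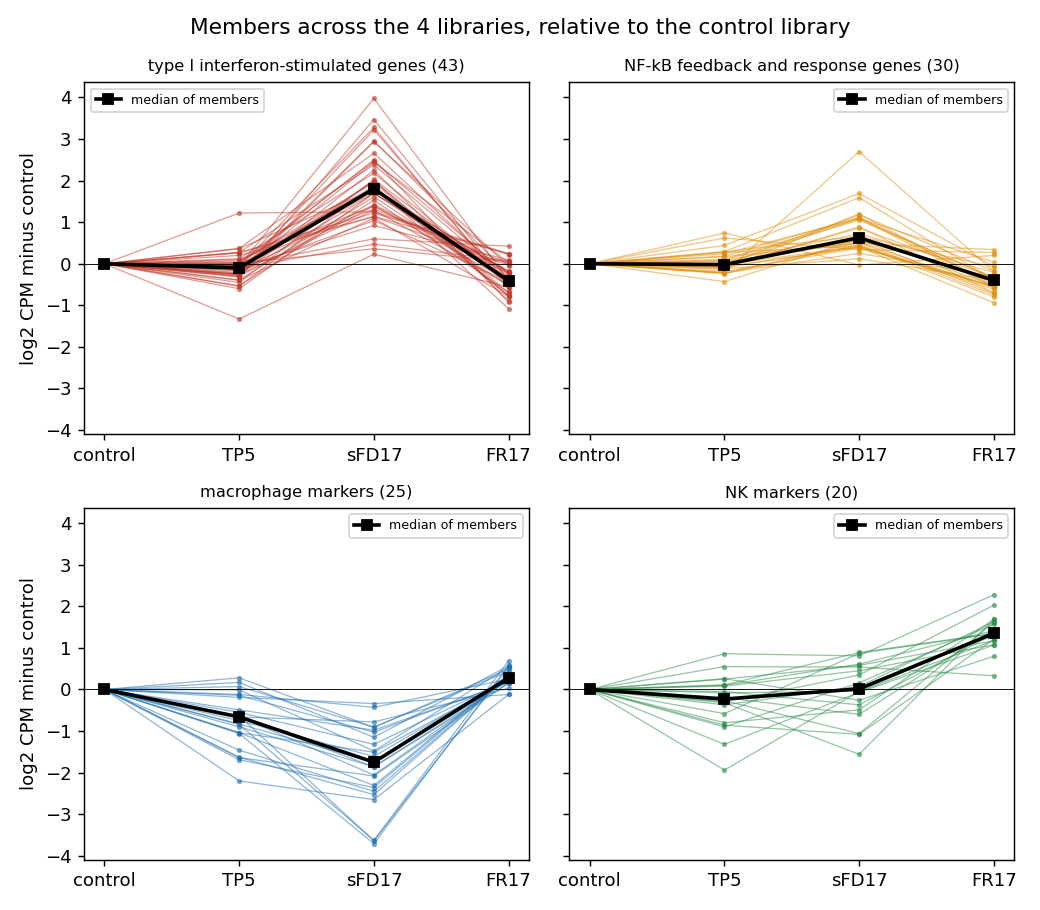
Level of each list member in the 4 libraries (horizontal axis) as log2 CPM minus the control library (vertical axis), thin lines for members and a thick black line for their median, in 4 lists. The interferon-stimulated and NF-kB medians peak in sFD17 at 1.80 and 0.62, the macrophage median is lowest in sFD17 at −1.75, and the NK median is highest in FR17 at 1.35.

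The Ifit genes also lie together, on chromosome 19 from 34550694 to 34650009 (GRCm38). All 6 tested genes of that stretch were lower in FR17, Ifit2, Ifit3, Ifit1bl1, Ifit3b, Ifit1bl2 and Ifit1, with differences from −4.38 to −2.46. Ifit1 had 438, 391, 3200 and 402 counts in the control, TP5, sFD17 and FR17 libraries. Ifit1bl1 and Ifit1bl2, on the minus strand between the others, were among the smaller differences at −2.46 and −2.73.

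Schlafen genes, interferon-induced regulators of leukocyte quiescence and tRNA, were lower in FR17 as well. Of 8 tested genes 6 were at least 2-fold lower, beside 10.8% of all genes, 0 were higher, and the median difference was −1.98. Slfn4, known from myeloid cells, had 27013, 22092, 98289 and 16778 counts in the control, TP5, sFD17 and FR17 libraries, a difference of −3.35 (−3.37 to −3.33). Slfn5 had 1832, 1884, 6302 and 1679 counts, a difference of −2.70. Slfn2 had 9256, 10046, 11926 and 10850 counts and lay within 2-fold at −0.93. The members thus shared a direction with sizes that ranged widely, and as near copies of one another they may exchange reads.

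Receptors and transducers of interferon had smaller differences, by the median, than the type I interferon-stimulated genes. Of 28 genes 7 were at least 2-fold lower in FR17, beside 10.8% of all genes, and 0 higher, with a median difference of −0.70. Among the 7 was Irf7, which is also on the type I list. Under library size alone and when centred on neutrophil markers 2 were lower, with medians of −0.24 and −0.15. Stat2 had 976, 856, 3112 and 1031 counts in the control, TP5, sFD17 and FR17 libraries, a difference of −2.39. Its partner Irf9 differed by −1.30, and Irf1, Stat3 and the feedback inhibitor Socs1 by −1.16, −1.29 and −1.29. The receptor chains Ifnar1, Ifnar2, Ifngr1 and Ifngr2 lay between −0.67 and −0.06. The ligands were scarce: Ifnb1 had 47, 18, 19 and 76 counts, a difference of 1.14 (0.46 to 2.01), Ifng had 15, 17, 23 and 56 counts, a difference of 0.46 (−0.24 to 1.25), and 6 of the other 7 ligands listed had 0 counts in all libraries. Ifnb1 was past 2-fold, and both ligand genes were highest in FR17 while most genes of the type I interferon-stimulated list were highest in sFD17.

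Some genes of nucleic acid sensing and antigen presentation were lower too. Of 20 cytosolic nucleic acid sensors 9 were at least 2-fold lower in FR17, beside 10.8% of all genes, and 0 higher. The lower genes Ifih1, Dhx58, Ddx58 and Zbp1 are also on the type I list. Ifi204, a DNA sensor, had 1526, 1601, 5726 and 1809 counts in the control, TP5, sFD17 and FR17 libraries, a difference of −2.46, whereas the adaptor Mavs had 318, 248, 138 and 479 counts and a difference of 0.99. Of 26 MHC class I genes 8 were at least 2-fold lower, beside the same 10.8%, and 0 higher, with a median of −0.52 that turned to 0.03 when differences were centred on neutrophil markers, and 2 were lower under that centring and under library size alone. Nlrc5, the class I transactivator, had 1017, 861, 3530 and 1229 counts, a difference of −2.32, the peptide transporter Tap1 differed by −1.38, and the class I molecules H2-K1 and H2-D1 by −0.17 and −0.47. Of 15 MHC class II genes 0 were past 2-fold in either direction, with a median of 0.42, but 7 were higher under library size alone and when centred on neutrophil markers, with medians of 0.88 and 0.97. H2-Aa had 35828, 45295, 18414 and 55818 counts and a difference of 0.80.

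NF-kB feedback and response genes, a list of factors, inhibitors and targets of that pathway, were lower in FR17. Of 30 genes 19 were at least 2-fold lower (63.3%, beside 10.8% of all genes) and 0 higher, with a median difference of −1.19. The kinase Ikbke, which also serves interferon induction, had 446, 399, 2274 and 530 counts in the control, TP5, sFD17 and FR17 libraries, a difference of −2.89. The adhesion molecule Icam1 had 4657, 5922, 10967 and 4807 counts, a difference of −1.99, and Nfkbie, an inhibitor of NF-kB, had 5256, 4961, 9467 and 4912 counts, a difference of −1.74. In 6 of the 30 genes sFD17 stood at least 2-fold above both references. Under library size alone 7 of the 30 genes were at least 2-fold lower, beside 4.78% of all genes.

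Genes of suppression and checkpoint function, which define MDSC activity, included some of the largest differences. Of 25 genes 11 were at least 2-fold lower in FR17 (44.0%, beside 10.8% of all genes) and 2 higher (8.00%, beside 11.3%), with a median of −0.53 that turned to 0.02 when centred on neutrophil markers. Under that centring and under library size alone 5 were lower. Nos2, the inducible nitric oxide synthase by which MDSCs restrain T cells, had 13, 10, 134 and 12 counts in the control, TP5, sFD17 and FR17 libraries, a difference of −4.01 (−5.27 to −3.43). Cd274, which encodes PD-L1, had 5399, 4253, 11398 and 4144 counts, a difference of −2.26 (−2.31 to −2.21). Acod1, the enzyme that makes itaconate, had 41250, 26727, 65878 and 25033 counts, a difference of −2.19. In CPM all 3 were highest in sFD17 and lowest in FR17, with Cd274 at 319.6, 242.5, 863.6 and 180.5. Prok2, a myeloid angiogenic factor, differed by −3.07, Il1rn, the antagonist of the interleukin-1 receptor, by −1.68, Trem1, an amplifier of inflammation, by −1.41, and Ptgs2, a prostaglandin synthase, by −1.34. The 2 genes higher in FR17 were Tgfb2, with 190, 39, 11 and 189 counts and a difference of 3.14 (2.43 to 4.33), and Il10, with 608, 276, 228 and 818 counts and a difference of 1.04.

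Inflammatory cytokines did not move as a group. Of 26 genes 8 were at least 2-fold lower in FR17 (30.8%, beside 10.8% of all genes) and 4 higher (15.4%, beside 11.3%), and under library size alone 4 were lower. The granulocyte growth factor Csf3 had 326, 412, 706 and 221 counts in the control, TP5, sFD17 and FR17 libraries, a difference of −2.46. The interleukin-12 family subunits Il12a and Il23a differed by −2.12 and −1.73 and Tnf by −1.05. Higher in FR17 were Csf2 at 1.46, Kitl at 1.42, Il18 at 1.13 and Il10. Il6 had 1502, 1378, 509 and 1622 counts, so that sFD17 was the low library, and its difference of 0.87 lay within 2-fold. The inflammasome sensor Nlrp3 had 33262, 36529, 52234 and 23900 counts, a difference of −1.93.

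Chemokines of both main classes differed in either direction. Of 16 CC chemokines 7 were at least 2-fold higher in FR17 (43.8%, beside 11.3% of all genes) and 1 lower (6.25%, beside 10.8%), with a median of 0.85, while their summed level was 2769 CPM in sFD17 and 2768 CPM in FR17. The monocyte attractants of the cluster on chromosome 11 made up 4 of the 7: Ccl7 had 738, 400, 122 and 1623 counts in the control, TP5, sFD17 and FR17 libraries, a difference of 2.92 (2.67 to 3.21). Ccl8 differed by 2.71, Ccl12 by 2.47 and Ccl2 by 1.96, whereas Ccl11 between them differed by 0.24 from 11 and 23 counts. Ccl3, which neutrophils make in quantity, was the 1 gene lower, at −1.06. Of 16 CXC and CX3C chemokines 5 were higher (31.2%, beside 11.3% of all genes, and 8 genes when centred on neutrophil markers) and 4 lower, and the 4 lower were Cxcl2, Cxcl17 and the interferon-induced Cxcl10 and Cxcl11. Cxcl10 had 844, 704, 3467 and 1263 counts, a difference of −2.25, and Cxcl11 had 3, 1, 43 and 8 counts, a difference of −2.87 (−4.53 to −2.12). Among the 5 higher were Pf4 at 2.77 and the B cell attractant Cxcl13 at 2.22. Pf4 and Ccl8 are also on the macrophage list.

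**Figure D4:**
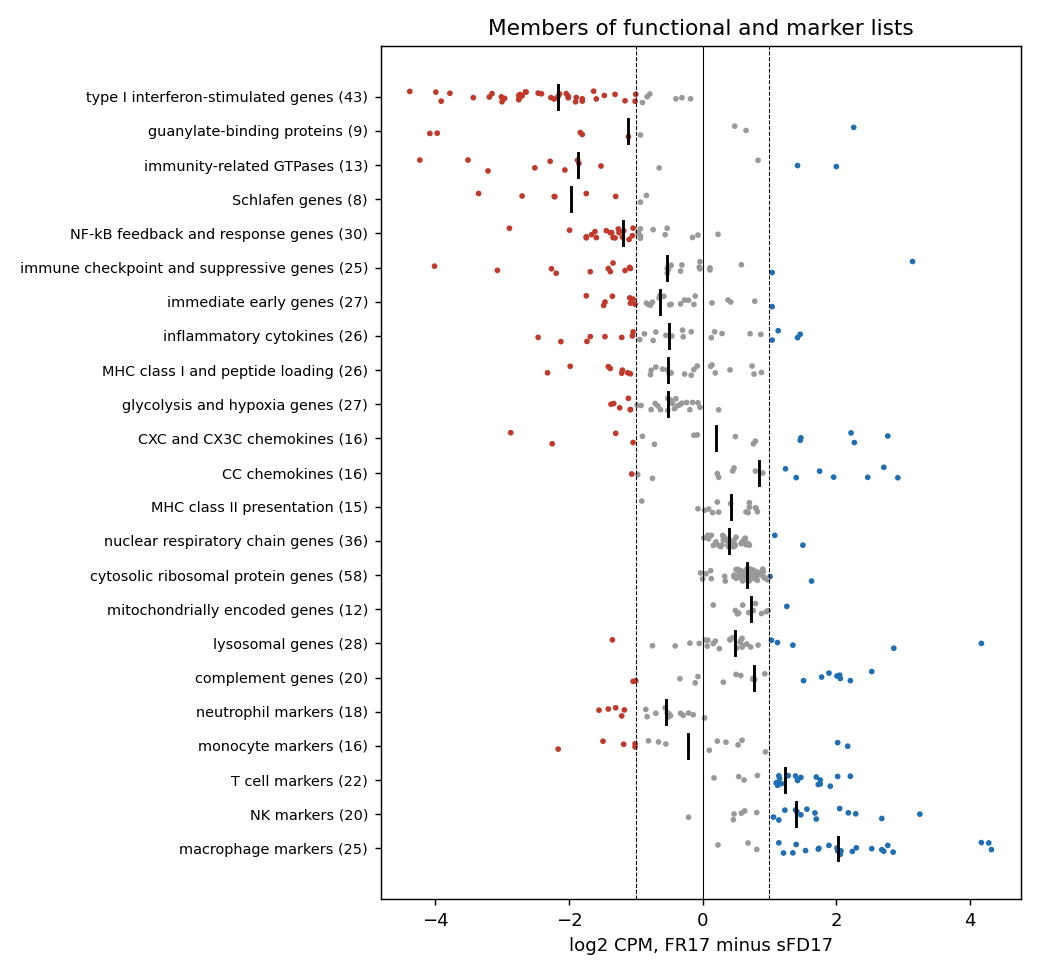
Difference of each list member (horizontal axis, log2 CPM in FR17 minus sFD17) in 23 lists (vertical axis, number tested in brackets), blue at 2-fold or more higher, red at 2-fold or more lower, with a black bar at each list's median. The type I interferon-stimulated list has its median at −2.16 and the macrophage markers at 2.02.

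The sorted cell type was checked against markers. The 18 neutrophil markers summed to 59172 CPM in sFD17 and 36542 CPM in FR17, with 44275 in control and 46285 in TP5. Of these 5 were at least 2-fold lower in FR17, beside 10.8% of all genes, and 0 higher, with a median of −0.55 that shrank to −0.08 under library size alone. Ly6g had 1234, 1716, 1468 and 2081 counts in the control, TP5, sFD17 and FR17 libraries, a difference of −0.29. Itgam, which encodes CD11b, had 6430, 6497, 5711 and 6924 counts, a difference of −0.52, and shares 68.7% of its exon bases with Gm49368 on the same strand. The sort genes thus lay within 2-fold. The markers S100a8 and S100a9 differed by −0.56 and −0.52, and the granule genes Ltf and Camp by −0.14 and 0.03. Among the 5 markers past 2-fold were Hdc, which makes histamine, at −1.55, Csf3r, the receptor of granulocyte colony-stimulating factor, at −1.30, and Cxcr2 at −1.21, and under library size alone 1 of the 18 was past 2-fold.

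Macrophage markers were higher in FR17 than in sFD17 throughout. All 25 markers had a positive difference, 22 were at least 2-fold higher (88.0%, beside 11.3% of all genes), 0 were lower, and the median was 2.02. The markers summed to 3939 CPM in sFD17 and 13693 CPM in FR17, a 3.48-fold difference, with 10986 in control and 7996 in TP5. The order of the libraries from low to high was therefore sFD17, TP5, control and FR17, and sFD17 stood at least 2-fold below both references for 8 of the 25 genes. In a bulk pool, fewer cells of a type and less RNA per cell cannot be told apart.

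Markers of alveolar macrophages had the largest values. Krt79 had 892, 514, 55 and 1954 counts in the control, TP5, sFD17 and FR17 libraries, a difference of 4.32 (3.97 to 4.77). Ear1, a ribonuclease with close copies such as Ear2, had 407, 202, 23 and 827 counts, a difference of 4.28, and Atp6v0d2, a proton pump subunit, had 1216, 816, 75 and 2392 counts, a difference of 4.17. The scavenger receptor Marco differed by 1.74, the transcription factor Pparg by 1.40, and Siglecf and Fabp4 lay within 2-fold at 0.81 and 0.68. Within this cell type the markers thus ranged from under 2-fold to about 20.7-fold. Of the interstitial markers, the haptoglobin receptor Cd163 had 3879, 1954, 611 and 6812 counts, a difference of 2.68, Folr2 differed by 2.85 and Lyve1 by 2.24. Of further members of the list, not assigned here to either kind of macrophage, Mrc1 differed by 2.30 and Mertk, a receptor for dying cells, by 2.07.

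Complement and lysosomal genes, many of which macrophages express, differed to unequal degrees. Of 20 complement genes 8 were at least 2-fold higher in FR17 (40.0%, beside 11.3% of all genes) and 1 lower, with a median of 0.77, and 14 were higher when centred on neutrophil markers. C1qa had 12261, 7170, 2843 and 20563 counts in the control, TP5, sFD17 and FR17 libraries, a difference of 2.06, and C1qb and C1qc differed by 1.89 and 2.01. C4b differed by 2.53, C6 by 2.05, C2 by 1.78 and C3ar1 by 1.51, while C3 was lower at −1.04. Of 28 lysosomal genes 5 were higher (17.9%, beside 11.3% of all genes) and 1 lower, and 22 lay within 2-fold, although 13 were higher under library size alone and 14 when centred on neutrophil markers. Among the 5 was the cysteine protease Ctsk, with 670, 566, 95 and 1219 counts and a difference of 2.86. Part of these lists is shared with the macrophage markers (C1qa, C1qb, C1qc and C4b, and Atp6v0d2), and the part of the macrophage markers in the other differences was not tested.

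Lymphocyte markers were higher in FR17 from low levels. Of 20 NK and cytotoxic markers 14 were at least 2-fold higher (70.0%, beside 11.3% of all genes) and 0 lower, with a median of 1.40, and in 16 of the 20 FR17 stood at least 2-fold above both control and TP5. They summed to 147.5 CPM in sFD17 and 293.7 CPM in FR17, with 121.4 in control and 112.9 in TP5. Gzma, a granzyme, had 247, 147, 137 and 1090 counts, a difference of 2.18, and Klra8, an activating receptor of NK cells, had 34, 28, 8 and 155 counts, a difference of 3.25 (2.46 to 4.71). Prf1, perforin, had 62, 52, 62 and 352 counts, a difference of 1.68. Unlike the macrophage markers, where sFD17 was the low library, these were high in FR17, with the sums of the others near one another. S1pr5 was the 1 NK marker with a negative difference, at −0.21.

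Of 22 T cell markers 18 were at least 2-fold higher in FR17 (81.8%, beside 11.3% of all genes) and 0 lower, with a median of 1.23, and FR17 stood 2-fold above both references for 6. They summed to 89.18 CPM in sFD17, 235.2 in FR17, 122.6 in control and 128.1 in TP5. Cd4, which some myeloid cells also carry, had 398, 192, 93 and 760 counts, a difference of 2.21, Trbc1 had 60, 80, 34 and 248 counts, a difference of 2.02, and Cd3e had 31, 37, 25 and 153, a difference of 1.76. Foxp3, the factor of regulatory T cells, shares 18.6% of its exon bases with Flicr and had 10, 8, 7 and 53 counts, a difference of 1.91 (0.98 to 3.50). Cd8a and Cd8b1 had 27, 33, 30 and 59 counts and 25, 18, 24 and 62 counts, and their intervals of −0.48 to 0.86 and −0.13 to 1.32 include equality.

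For several other lung cell types the share of markers at least 2-fold higher was near the 11.3% of all genes, while the share lower varied around their 10.8%. Dendritic cell markers had 2 of 16 higher, B and plasma cell markers 3 of 24 higher and 1 lower, endothelial markers 2 of 20 higher, and fibroblast and smooth muscle markers 3 of 20 higher and 1 lower. The higher shares were 12.5%, 12.5%, 10.0% and 15.0%, and the lower shares 0%, 4.17%, 0% and 5.0%. Under library size alone the higher counts of these 4 lists were 5, 6, 8 and 9, beside 25.7% of all genes, and when centred on neutrophil markers 6, 6, 9 and 12, beside 30.7%. Epithelial markers had 3 of 20 higher and 3 lower, with the airway secretory genes Bpifa1 at −1.64 and Cyp2f2 at −1.36. Monocyte markers had 2 of 16 higher (12.5%), F13a1 at 2.17 and Chil3 at 2.02, and 5 lower (31.2%, above the 10.8% of all genes). The 5 became 3 without a filter, 2 under library size alone and 1 when centred on neutrophil markers, beside 9.48%, 4.78% and 3.79% of all genes. Plac8 had 1608, 3369, 6854 and 2669 counts, a difference of −2.16, and Ly6c2, which marks classical monocytes, had 1739, 2874, 3628 and 2777 counts, a difference of −1.18. Plac8 was thus high in sFD17 as the interferon-stimulated genes were. Shares above the 11.3% were seen elsewhere. Type 2 lymphoid markers had 6 of 17 higher (35.3%), 11 under library size alone, and 1 lower, and platelet markers had 4 of 12 higher (33.3%) and 1 lower. Red blood cell markers had 5 of 6 higher and a median of 1.26 from few counts, and Hba-a1 had 42 counts in sFD17 and 270 in FR17. Of 10 melanoma genes 3 had 0 counts in all 4 libraries (Tyr, Tyrp1 and Slc45a2), 4 had under 10 counts in each, and 3 were tested. Of these Gpnmb, which macrophages also express, had 1392, 1264, 327 and 1883 counts, a difference of 1.72, and Mitf and Pmel differed by 0.51 and −0.84.

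**Figure D5:**
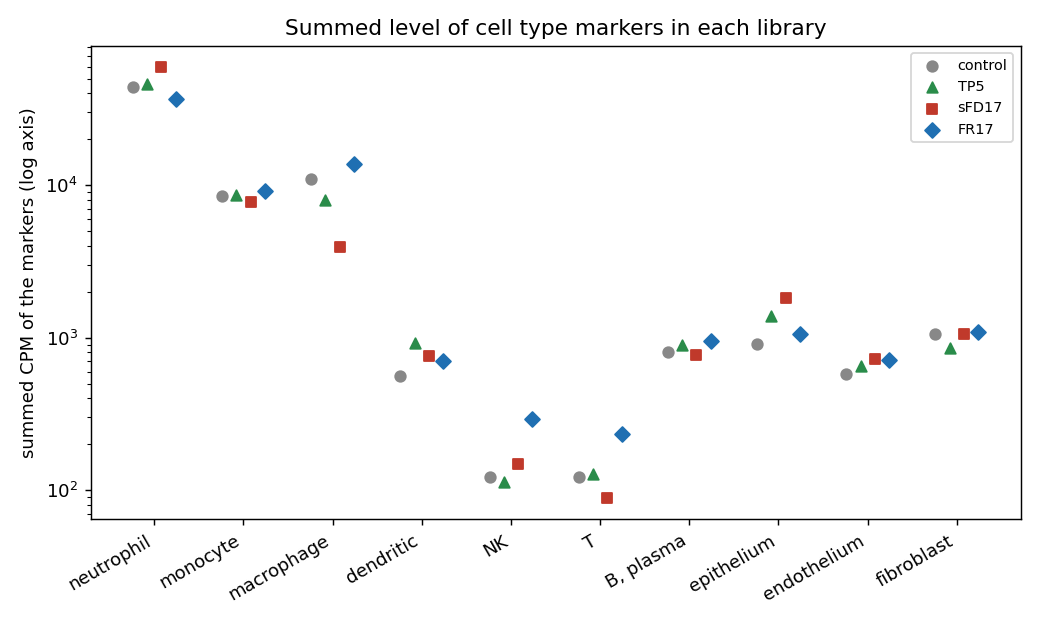
Summed CPM of the markers of 10 cell types (horizontal axis) in each library, on a log axis, with 1 symbol per library. For macrophage markers sFD17 is lowest at 3939 CPM and FR17 highest at 13693 CPM, and for NK and T cell markers FR17 is highest at 293.7 and 235.2 CPM.

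Housekeeping genes differed in 1 direction within most lists, and the count past 2-fold rested on the scaling. All 36 nuclear respiratory chain genes and all 12 mitochondrially encoded genes tested were above 0, with medians of 0.39 and 0.73. Past 2-fold were 2 and 1 of them (5.56% and 8.33%, beside 11.3% of all genes). Of 58 cytosolic ribosomal protein genes 57 were above 0, with a median of 0.67, and 2 were past 2-fold (3.45%, beside 11.3% of all genes). Under library size alone 10 of the respiratory, 8 of the mitochondrially encoded and 45 of the ribosomal genes were at least 2-fold higher in FR17, beside 25.7% of all genes. When centred on neutrophil markers 15, 11 and 51 were higher, beside 30.7%. Relative to the median of all genes, the medians of these lists were 0.32, 0.65 and 0.59 by TMM and 0.34, 0.66 and 0.61 by library size alone. Rps4x had 7298, 9388, 3948 and 13434 counts in the control, TP5, sFD17 and FR17 libraries, a difference of 0.97. Against control the ribosomal median was −0.34 in sFD17 and 0.33 in FR17, so that both libraries contributed. Of 27 glycolysis and hypoxia genes 26 were below 0 and 6 were at least 2-fold lower, beside 10.8% of all genes, with a median of −0.52 that turned to 0.03 when centred on neutrophil markers, where 0 were past 2-fold, as under library size alone. The glucose transporters Slc2a3 and Slc2a1 differed by −1.37 and −1.33. Of 27 immediate early genes 8 were lower, beside 10.8% of all genes, and 1 higher, with Fosl1 at −1.74 and Fosl2 at −1.48. The 8 became 3 under library size alone, 4 without a filter and 1 when centred on neutrophil markers.

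The genes that the study follows in lung tissue, mainly as protein, were mostly within 2-fold here as mRNA of the sorted cells. These measures and cell sources are unlike, so the values are no check on the lung results. Tgfb1 differed by −0.33, Mmp9 by −0.85, Mmp2 by −0.20, Angpt2 by −0.70, Acta2 by −0.14, Postn by 0.68, Lox by 0.84 and Fn1 by 0.94. Vegfa had 3752, 3486, 3293 and 2713 counts in the control, TP5, sFD17 and FR17 libraries, a difference of −1.08, and Vcan had 37, 96, 106 and 90 counts, a difference of −1.01 (−1.46 to −0.62). Whether values this near 2-fold pass it, as for Vegfa, Vcan, Lox and Fn1, rests on the scaling. Thbs1, an inhibitor of angiogenesis, differed by −1.54 with 60894, 79483, 88576 and 52884 counts. Angptl4 had 523, 306, 74 and 977 counts, a difference of 2.90, and Ang, which shares exon bases with Rnase4, differed by 2.60.

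By annotation, the balance of directions differed among classes of genes. Protein-coding genes were at least 2-fold higher in 11.2% and lower in 7.66% of 13505 genes. Of 397 TEC loci, a class of unproven transcripts, 40.3% were lower and 6.05% higher. Of 481 antisense genes 29.7% were lower and 12.9% higher, and of 481 lincRNA genes 27.4% and 11.2%. Use of strand in the counting is not given in the sources used here, so reads of antisense genes and of their partners cannot be told apart. Of 107 immunoglobulin variable segments 32.7% were higher and 13.1% lower. Among the 929 genes the table assigns to transcription factor families, 128 were higher and 70 lower, beside 11.3% and 10.8% of all genes tested. The C2H2 zinc finger family supplied 87 of the 128 from 414 genes, with 15 lower. Its median was 0.39, beside 0.07 over all genes.

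The remaining genes with the largest differences were chosen by size, so their values are a description. Erc2, a scaffold of the presynaptic zone, had 27, 19, 0 and 58 counts in the control, TP5, sFD17 and FR17 libraries, at least 11.1-fold higher against a floor of 3 counts in sFD17, with a lower interval bound of 3.13 on the log2 scale. Fabp1, a fatty acid carrier, had 145, 66, 9 and 394 counts, a difference of 4.44 (3.71 to 5.79), and Trim29 had 207, 105, 13 and 453, a difference of 4.18. Vstm2a, Pnpla5 and Htr2c had 2, 1 and 2 counts in sFD17 and 124, 73 and 97 in FR17, with CPM ratios of 35.6, 42.0 and 27.9 and lower interval bounds of 3.27, 2.87 and 2.91 on the log2 scale. Acaa1b, of peroxisomal fatty acid oxidation, differed by 4.10. For all 10 of the genes with the largest positive difference, sFD17 lay at least 2-fold below both control and TP5. On the other side, Lipg, the endothelial lipase, had 54, 39, 585 and 71 counts, a difference of −3.79, and Cd300ld3 and Cyp2a5 had 85 and 75 counts in sFD17 and 7 and 6 in FR17.

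Set against the reference libraries, sFD17 departed from both more often than FR17 did. Of the 1847 genes higher in FR17, sFD17 lay at least 2-fold below both control and TP5 in 451, and FR17 at least 2-fold above both in 192. Of the 1766 genes lower in FR17, sFD17 lay at least 2-fold above both in 372, and FR17 at least 2-fold below both in 135. In most of these genes, 1228 of the higher and 1274 of the lower, neither library was 2-fold away from both references. On the 5 interferon lists, 57 of 94 genes were at least 2-fold lower, beside 10.8% of all genes tested, and 4 were higher, beside 11.3%. At least 4-fold lower in FR17 were 35 of these 94 genes and 269 of all 16369 genes tested.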

How the data were processed

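CD11b+Ly6g+ cells of 4 groups were sequenced, 1 library per group. The authors deposited raw counts of reads per gene, without normalization. Submitters' processing notes name HISAT2 2.0.5, StringTie 1.3.3b, featureCounts 1.5.0-p3, edgeR 3.18.1 and GRCm38.p6. Per the paper, RNA came from a TRIzol extraction and a directional NEBNext kit was used. Columns were matched to groups by name, leaving 0 sample columns out. Of 54532 identifiers 53585 have the same start and end in GENCODE M21. Of 100 symbols given to several identifiers, the one with most counts was kept.

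Counts were scaled with R 4.3.3 and edgeR 4.0.16 (TMM, log2 CPM, prior count 2) over genes with 10 or more counts in at least 1 library. With 1 library per group no test was run, and 2-fold was used as the threshold, with the main list counts given beside the share of all genes. Intervals are 95% exact binomial intervals of 2 counts, by scipy 1.17.1. Genes at 0 were set to a floor of 3 counts for fold bounds. The fold rule was checked on simulated data. The members and lists were chosen with earlier results of these data known. Some genes are on more than 1 list and were counted in each. Genes were named by rule: the 10 largest differences each way with 50 or more counts in either library, the 3 largest in each list, interferon-list members past 2-fold, the 5 most abundant each way, and genes the study follows. All other genes, such as list members within 2-fold, were named after their values were seen. Alternatives were DESeq2 1.42.0 size factors, library size alone, no filter, 10 counts in every library, a prior of 0.5, a 3-fold threshold, a threshold that also needs the interval to exclude equality and, added after seeing the data, centring on neutrophil markers. Values of some list members are not reported here.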

Additional observations from a re-analysis of the deposited data

How the results depend on the processing

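Of 180 named genes, which hold the 3 largest differences of each list and not the further interferon-list members, 149 were past 2-fold and 0 of these changed sign under the alternatives, while 27 came under 2-fold with library size alone and 31 when centred on neutrophil markers. DESeq2 size factors, a prior count of 0.5 and requiring the interval to exclude equality left each of the 10 leading list counts and both counts over all genes within 1.5 times. The count of genes higher in FR17 became 4209 and that of genes lower in FR17 became 782 under library size alone, which left 7 NF-kB and 5 suppressive genes at least 2-fold lower. Centring on the neutrophil markers gave 5024 and 620 genes, 7 NF-kB and 5 suppressive genes lower, and 14 complement genes higher, and the share of differences higher in FR17 became 89.0%. These scalings move the median of all genes to 0.52 and 0.62. Without a filter 3136 genes were higher, and with 10 counts in every library 1082. At 3-fold 670 were higher and 579 lower, with 7 NF-kB and 5 suppressive genes lower and 7 NK and 7 T cell markers higher. The type I interferon list had 32 to 37 genes at least 2-fold lower, or 3-fold under that threshold, and the macrophage list 17 to 24 higher. Medians of the adhesion, Toll-like receptor, granule, monocyte, NADPH oxidase, BCL2 family, granulocyte transcription factor, chaperone and matrix metalloproteinase lists changed sign under library size alone, but hardly moved relative to all genes, as for adhesion molecules, from −0.41 to −0.40. With 1 library per group no replicate could be left out. Depth limits genes under 50 counts, where intervals are wide.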

Other observations

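Several receptors not described in the comparison also differed between FR17 and sFD17. The lipopolysaccharide co-receptor Cd14 had 48376, 40367, 65539 and 42749 counts in the control, TP5, sFD17 and FR17 libraries, a difference of −1.41 on the log2 CPM scale, and Irak3, a brake on Toll-like receptor signaling, differed by −1.52. Of 24 Toll-like receptor genes and adaptors 7 were at least 2-fold lower (29.2%, beside 10.8% of all genes tested) and 0 higher. Their median of −0.31 turned to 0.15 under library size alone. The 7 became 4 without a filter, 1 under library size alone and 0 when centred on neutrophil markers, beside 9.48%, 4.78% and 3.79% of all genes. The death receptor Fas had 1044, 934, 1750 and 930 counts, a difference of −1.71. Il1rap, which the interleukin-1 and interleukin-33 receptors share, had 4661, 3085, 4659 and 2374 counts, a difference of −1.77, and FR17 was its lowest library.

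Of 14 basophil and mast cell markers 6 were at least 2-fold higher in FR17 (42.9%, beside 11.3% of all genes tested) and 2 lower (14.3%, beside 10.8%). With 10 counts in every library 2 of 9 were higher, beside 8.04% of all such genes. The sum of the markers, 6595 CPM in sFD17 and 2408 CPM in FR17, was 2.74-fold higher in sFD17, against a median difference of 0.91. Hdc, which is also on the neutrophil list, had 75252 of the 87045 counts of that sum in sFD17 and 44552 of the 55279 in FR17. Of 7 eosinophil markers 3 were higher (42.9%, beside 11.3% of all genes tested), in cells sorted as CD11b+Ly6g+. With DESeq2 size factors 2 were higher, beside 10.4% of all genes. Under library size alone or centring on neutrophil markers 6 were higher, beside 25.7% and 30.7% of all genes. Prss34, a basophil protease, had 18, 58, 62 and 209 counts in the control, TP5, sFD17 and FR17 libraries, and the mast cell protease Mcpt4 had 13, 1, 5 and 44. Prg2, an eosinophil granule protein, had 19, 72, 32 and 158 counts, a difference of 1.46. Alox15, which both eosinophils and resident macrophages express, had 2267, 836, 218 and 2324 counts, a difference of 2.61, with sFD17 at least 2-fold below both references. Igha, the constant region of IgA, had 1337, 677, 366 and 2576 counts, a difference of 2.01. Car4, taken here as a marker of capillary endothelium, had 784, 530, 110 and 1522 counts, a difference of 2.97. The median of the 20 endothelial markers was 0.41, and 2 were at least 2-fold higher (10.0%, beside 11.3% of all genes). Which cells carried the Car4 mRNA was not tested. Wnt2, a fibroblast gene, had 62, 6, 2 and 74 counts.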
